A study of Mus musculus with 16 samples.

Results

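Bulk RNA sequencing of 16 transplanted mouse glioblastomas was used to follow 9 genes of the pathways that glioma most often breaks: Trp53, Mdm2, Cdkn1a, Cdkn2a, Cdkn2b, Cdk4, Cdk6, Rb1 and Nf1. They were chosen by gene symbol, and all 9 had a row among the 26466 genes of the deposited table of all libraries. The tumours formed 4 groups: 4 Type 2 TAM depleted, 4 Type 2 Control, 3 Type 1 TAM depleted and 5 Type 1 Control. TAMs are tumour-associated macrophages, and the series title describes the 2 kinds as lineage-based models of glioblastoma (GBM). Every library came from tumour tissue of the transplanted model. The alleles each kind carries, the promoter that drove them, the number of lines transplanted, the strain, age and sex of the hosts, and the way TAMs were depleted are not stated by the labels or files used here. Mouse glioma models are often made by deleting tumour suppressors such as Trp53 and Nf1 in a chosen cell lineage. A gene-level count does not show which exons the reads cover, and reads from normal cells of the tissue are included, so the values below do not tell whether an allele was deleted.

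The p53 protein, encoded by Trp53, is a transcription factor that stops division or kills a cell after DNA damage or oncogene stress. Mdm2 marks p53 for destruction and is itself switched on by p53, which makes a feedback loop, while Cdkn1a encodes p21, the p53 target that blocks cyclin-dependent kinases. The Cdkn2a locus encodes a pair of unrelated brakes from separate first exons, p19Arf, which holds back Mdm2, and p16Ink4a, which with p15Ink4b from Cdkn2b inhibits Cdk4 and Cdk6. These kinases phosphorylate the retinoblastoma protein encoded by Rb1 and so release E2F transcription factors and entry into S phase. Nf1 encodes neurofibromin, which turns RAS off by speeding its hydrolysis of GTP.

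In these 16 tumours none of the 9 genes passed the test across all genes in any of the 5 comparisons made. Over all 26463 genes tested, 3.61% passed for TAM depletion in Type 2, 0% in Type 1 and 0% for the difference of these responses, 3.09% passed between the Controls and 0.185% between the depleted groups. A single library, Type 2 Control 2, stood apart at 8531 normalized counts of Cdk4, more than any other library, and the genes beside Cdk4 on chromosome 10 were high in it too. Cdkn1a, Cdkn2a and Cdkn2b had higher averages in Type 2 Control than in Type 1 Control tumours, by 0.95 to 1.15 on the log2 scale, with adjusted p-values of 0.231 to 0.39 (limma). Among the libraries in which silent receptor genes took the most reads, which include all Type 1 Controls, these differences were 0.69 for Cdkn1a, 0.37 for Cdkn2a and 0.11 for Cdkn2b. Within single libraries, the ratio of Cdkn1a to Mdm2 reads was higher in every Type 2 library but 1 than in every Type 1 library. None of these ratio differences passed correction over all 36 pairs of the 9 genes in 4 comparisons. The 148 ratio tests also took Cdk4 over Tspan31, which stood outside this correction.

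Values are given as normalized counts, recovered from the authors' deposited log2 values, and log2 fold changes are on the log2(normalized count + 1) scale from limma-trend with Benjamini-Hochberg adjustment over 26463 genes. Depth was 6.72 to 18.3 M (mega) reads in Type 2 TAM depleted, 4.21 to 14.7 M in Type 2 Control, 14.3 to 15.95 M in Type 1 TAM depleted and 5.83 to 7.63 M in Type 1 Control libraries. In 9 libraries the silent olfactory and vomeronasal receptor genes took more than 2500 reads per M reads, and in the other 7 fewer than 800 (highest 779). The 9 were all 5 Type 1 Control libraries, 2 Type 2 Control and 2 Type 2 TAM depleted. In these 9 the single gene model Gm10800 took 13.8 to 58.2% of reads (16.6 to 35.1% in Type 1 Control). In the other 7 it took at most 2.03%, so depth overstates the reads left for other genes in the 9. In Type 1 this background and the treatment cannot be told apart, since no control library is in the low set and no depleted library in the high set. The labels do not tie a tumour to an animal or culture, and the p-values describe only how far these samples scatter, part of which may be technical. In bulk tissue, fewer cells of a type and less RNA per cell cannot be told apart. TAM markers gave a mixed check of the labels. In Type 2 TAM depleted tumours 5 of 17 fell and 0 rose, where 3.61% of all genes passed. In Type 1 0 of 17 passed, as did 0% of all genes. There 2 of the 17 had an unadjusted p under 0.05, as did 8019 of 26463 genes. Of the 17, 15 were negative and 2 positive (median -0.46, all genes -0.06). Csf1r, the macrophage receptor, differed by -0.46 (adjusted p = 0.478, limma).

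**Figure D1:**
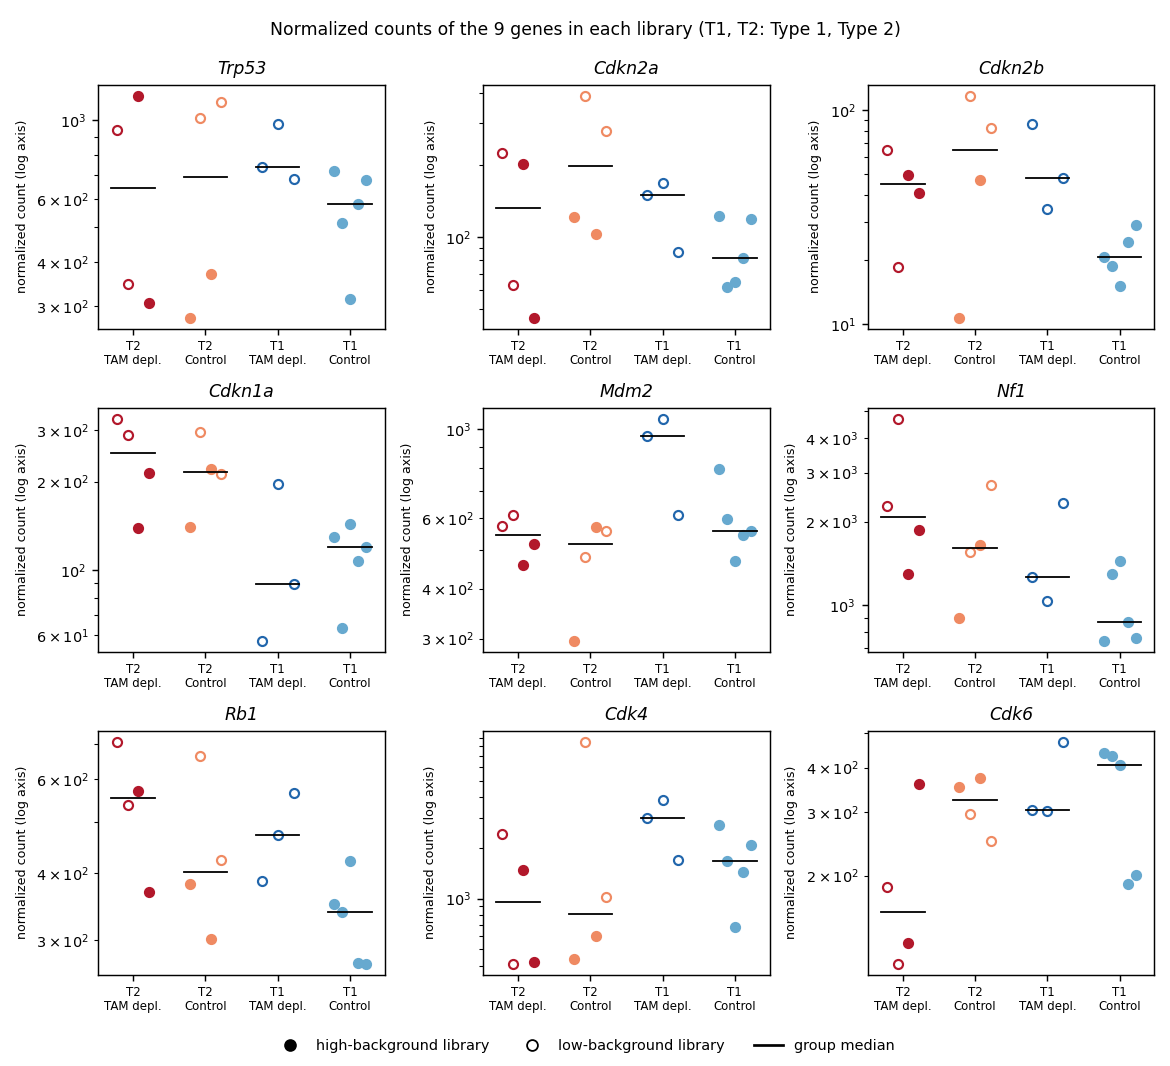
Normalized count of each of the 9 genes (log scale) in every library, by group, with filled points for high-background and open points for low-background libraries and the group median as a bar. Cdk4 spans 412 to 8531 and its highest point is a single Type 2 Control library, while Mdm2 and Rb1 stay within a much narrower range.

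Per kilobase of exon, the median over the 16 libraries ran in the order Cdk4 (487), Trp53 (168), Mdm2 (111), Cdkn2a (103), Nf1 (86.4), Rb1 (67.3), Cdkn1a (39.8), Cdkn2b (27.1) and Cdk6 (21.7). The top of this order was clear, with Cdk4 above Trp53 in 16 of 16 libraries. From Trp53 down to Rb1 each gene exceeded the next in only 10 or 11 of 16 libraries, so those neighbours overlap. Rb1 exceeded Cdkn1a in 15 of 16, Cdkn1a exceeded Cdkn2b in 13 and Cdkn2b exceeded Cdk6 in 12. Cdk6 has long transcripts, which lowers it on this scale. The spread over libraries differed as widely as the level. The highest library held 20.7 times the lowest for Cdk4, 10.8 times for Cdkn2b, 8.51 times for Cdkn2a, and 2.61 times for Rb1. The smallest read count behind any value was 3 reads, for Cdkn2b in Type 2 Control 1 (exact Poisson 95% interval 0.619 to 8.77, counting error only). That library had 4.21 M reads, and Gm10800 took 58.2% of them, the highest share among the high-background libraries.

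Trp53 lies at chr11:69580359-69591873 on the plus strand of GRCm38 (GENCODE vM21). It had 940.3, 347, 1171 and 306 normalized counts in Type 2 TAM depleted libraries 1 to 4, against 279, 1015, 369.5 and 1128 in Type 2 Control libraries 1 to 4. Both Type 2 groups hold a pair of libraries near or above 940 and a pair at or under 370, so the averages of 691 ± 432 and 698 ± 436 (SD, n = 4 each) are almost equal. The lower pair is the high-background pair in Type 2 Control, but not in Type 2 TAM depleted, where 1 of each pair is of the high set. The Type 2 depletion fold change was 0.90 among high-background and -0.90 among low-background libraries. In Type 1 the gene had 740.2, 978 and 682 normalized counts in TAM depleted libraries, against 722, 515, 314, 582 and 680.3 in Control. These ranges overlap, and the log2 fold change was 0.55 (SE 0.51, adjusted p = 0.447, limma). With the background set as a block, which takes 1 background effect for both tumour kinds, its sign turned, to -0.29. The gene was detected in every library, with at least 78 reads. The library kit does not mark strand, but Wrap53, the neighbour on the other strand, shares no exon with Trp53 in this annotation and had 53.6 to 142 normalized counts.

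Mdm2 (chr10:117688875-117710758, minus strand) was the steadiest of the 9 over the 8 Type 2 libraries by its highest against its lowest value. It had 573, 611, 458 and 518 normalized counts in TAM depleted libraries, against 297, 480.2, 569 and 556 in Control libraries, and the log2 difference was 0.22 (SE 0.27, adjusted p = 0.691, limma). Type 1 tumours had 962, 1061 and 609.6 normalized counts of Mdm2 in TAM depleted libraries, against 796, 596, 467, 546 and 556 in Control. The depleted libraries sit toward the top of the Type 1 range, with an overlap of 1 Control library, and the fold change was 0.55 (SE 0.28, adjusted p = 0.189, limma). That value is close to the median of all well-expressed genes in the same comparison, 0.43 for the 13985 genes with a mean of 50 or more. Between the depleted groups the log2 fold change of Type 2 over Type 1 was -0.67 (SE 0.29), which did not pass over all genes (adjusted p = 0.374, limma).

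Cdkn1a (chr17:29090976-29100727, plus strand) had the smallest adjusted p of the 9 in both comparisons of the tumour kinds. It had 328, 288, 139 and 215 normalized counts in Type 2 TAM depleted and 139, 296, 221 and 212 in Type 2 Control libraries. Type 1 tumours had 57.3, 196 and 89.4 in TAM depleted and 129, 63.2, 144, 107 and 119 in Control libraries. Of the 8 Type 2 libraries 2 lie under 200, and all 8 Type 1 libraries do. The log2 fold change of Type 2 over Type 1 was 0.95 (SE 0.37, adjusted p = 0.231) between Controls and 1.19 (SE 0.42, adjusted p = 0.275) between TAM depleted tumours (limma). The unadjusted intervals, 0.16 to 1.73 and 0.30 to 2.09, lie above 0. Among high-background libraries alone the difference between Controls was 0.69, and among low-background ones that between TAM depleted tumours was 1.60. Depletion itself left Cdkn1a with a fold change of 0.14 in Type 2 (95% interval -0.69 to 0.96) and -0.11 in Type 1 (-0.97 to 0.74), intervals that reach well to both sides of 0. The Type 1 value became -0.78 with the background block.

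The upstream of a pair of RefSeq starts of Cdkn1a is shown because its window carries the only p53-type word found in those of the 9, and Cdkn1a is a textbook p53 target. RefSeq windows on GRCm38.p6 run from 250 bases before to 50 after a start site, and 8 of the 9 genes matched, with 10 windows in all. Rb1 was not matched. Capitals mark a pair of the p53 core word CATG with 6 other bases between them, found 48 bases before the start in chr17:29090729-29091028, plus strand.
Cdkn1a upstream start: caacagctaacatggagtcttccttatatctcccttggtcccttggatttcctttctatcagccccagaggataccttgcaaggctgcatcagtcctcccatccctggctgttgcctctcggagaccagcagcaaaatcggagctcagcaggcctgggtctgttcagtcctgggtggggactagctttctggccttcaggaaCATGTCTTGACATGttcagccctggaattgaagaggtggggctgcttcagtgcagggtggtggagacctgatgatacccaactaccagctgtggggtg
On both strands, 234 of 32851 promoter windows (0.712%) hold this spaced pair. The downstream Cdkn1a window, chr17:29093519-29093818, and the other 8 windows of the 9 genes do not.

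Cdkn1a and Mdm2 are both p53 targets, and their read ratio within a library does not depend on the scaling between libraries. Cdkn1a over Mdm2 was 0.572, 0.471, 0.304 and 0.415 in Type 2 TAM depleted libraries, against 0.473, 0.617, 0.389 and 0.381 in Type 2 Control. In Type 1 it was 0.0598, 0.185 and 0.147 in TAM depleted and 0.163, 0.107, 0.308, 0.197 and 0.216 in Control libraries. Type 2 TAM depleted 3 (0.304) falls just under Type 1 Control 3 (0.308), and every other Type 2 library lies above all Type 1 libraries. On the log2 scale the ratio averaged -1.13 ± 0.32 (SD, n = 4) in Type 2 Control and -2.42 ± 0.56 (SD, n = 5) in Type 1 Control tumours, and the groups did not overlap (exact permutation test, 2-sided p = 0.0159). Between depleted tumours it averaged -1.22 ± 0.38 (SD, n = 4) in Type 2 and -3.09 ± 0.86 (SD, n = 3) in Type 1, also without overlap, at p = 0.0286, the smallest that the 35 exact permutation splits allow. Adjusted over the 36 pairs of the 9 genes in 4 comparisons, both exact permutation p-values became 0.514. Of the 36 pairs, 4 had groups without overlap between the depleted tumours and 2 between the Controls, against 9.07% and 6.95% of single genes in these comparisons. For depletion, 1 of 36 did so in Type 2 and 0 in Type 1, against 7.25% and 39.1% of single genes.

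**Figure D2:**
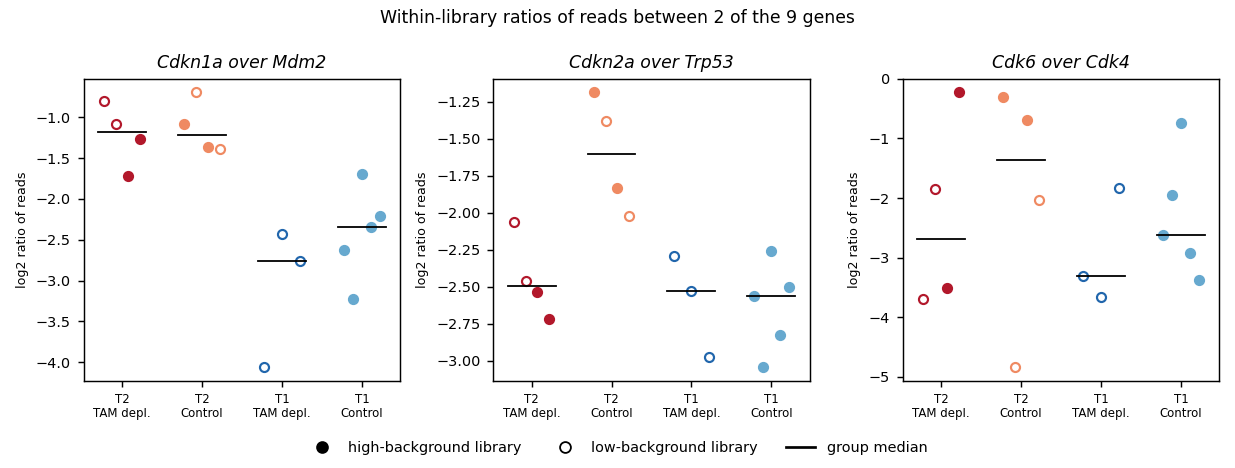
Log2 ratios of reads of Cdkn1a to Mdm2, Cdkn2a to Trp53 and Cdk6 to Cdk4 in every library, by group, with filled points for high-background and open points for low-background libraries and the group median as a bar. Cdkn1a over Mdm2 is higher in both Type 2 groups than in their Type 1 counterparts, and Cdkn2a over Trp53 is highest in the 4 Type 2 Control libraries.

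Cdkn2a (chr4:89274471-89294653, minus strand) and Cdkn2b (chr4:89306299-89311039, minus strand) are neighbours. Counts per gene cannot separate the Ink4a and Arf messengers of Cdkn2a, which share most of their exons. Both transcript starts are shown because they are separate promoters under 1 gene count. Capitals mark TTTCCCGC, an E2F-type word 99 bases before the distal start.
Cdkn2a distal start, chr4:89294570-89294869, minus strand: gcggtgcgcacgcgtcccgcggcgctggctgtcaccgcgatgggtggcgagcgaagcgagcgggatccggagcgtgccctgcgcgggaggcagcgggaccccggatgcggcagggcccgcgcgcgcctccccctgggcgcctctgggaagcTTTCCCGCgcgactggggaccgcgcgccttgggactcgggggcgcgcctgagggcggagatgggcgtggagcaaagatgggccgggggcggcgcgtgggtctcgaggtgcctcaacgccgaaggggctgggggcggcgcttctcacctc
Cdkn2a proximal start, chr4:89282143-89282442, minus strand: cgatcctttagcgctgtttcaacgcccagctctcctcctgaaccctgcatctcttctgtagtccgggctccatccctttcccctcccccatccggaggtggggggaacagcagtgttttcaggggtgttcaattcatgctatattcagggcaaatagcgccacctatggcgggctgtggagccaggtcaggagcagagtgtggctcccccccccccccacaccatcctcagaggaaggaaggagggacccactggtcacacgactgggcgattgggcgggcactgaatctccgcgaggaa
The words searched on both strands were TTTCCCGC, TTTCGCGC and TTTGGCGC, and 606 of 32851 windows (1.84%) hold 1 or more. The proximal window and that of Cdkn2b hold none of these words.

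Cdkn2a had 225, 62.8, 202 and 45.9 normalized counts in Type 2 TAM depleted libraries, against 122, 391, 103 and 277 in Type 2 Control. The depleted libraries split into a pair above 200 and a pair under 65, and the Control libraries reach 391. The fold change was -0.84 (SE 0.52, adjusted p = 0.428, limma), and it was -0.21 among high-background and -1.46 among low-background libraries, the extremes of the 31 alternatives tried, all negative. In Type 1 the gene had 151, 169 and 86.5 in TAM depleted libraries, against 122, 61.7, 65.0, 81.4 and 119 in Control, a fold change of 0.59 (SE 0.54, adjusted p = 0.441, limma) that turned to -0.34 with the background block. Between Controls, Type 2 differed from Type 1 by 1.15 (SE 0.50, adjusted p = 0.301, limma). Of the 4 Type 2 Control libraries, the 2 of high background lie in the upper part of the Type 1 Control range and the 2 of low background far above it. Among high-background libraries alone the difference was 0.37.

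Relative to Trp53 in the same library, Cdkn2a separated the Type 2 Control tumours from the rest. Cdkn2a over Trp53 reads were 0.24, 0.182, 0.173 and 0.152 in Type 2 TAM depleted libraries, against 0.439, 0.385, 0.28 and 0.246 in Type 2 Control. In Type 1 they were 0.204, 0.173 and 0.127 in TAM depleted and 0.169, 0.121, 0.209, 0.141 and 0.176 in Control libraries. All 4 Type 2 Control libraries lie above all 12 others. The log2 ratio averaged -2.44 ± 0.28 in Type 2 TAM depleted and -1.61 ± 0.39 in Type 2 Control libraries (SD, n = 4 each; 2-sided exact permutation p = 0.0286). Against Type 1 Control, at -2.64 ± 0.30 (SD, n = 5), the Type 2 Control value gave p = 0.00794, the smallest the exact permutation test allows with these numbers. Adjusted over all 36 pairs of the 9 genes in 4 comparisons, both became 0.514. The Type 2 Control and TAM depleted groups each hold 2 high- and 2 low-background libraries, and the lowest Control ratio (0.246, low set) is close to the highest depleted one (0.24, low set).

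Cdkn2b had 64.9, 18.5, 49.6 and 41.0 normalized counts in Type 2 TAM depleted libraries, against 10.7, 116, 47.2 and 82.2 in Type 2 Control, groups that overlap throughout. Their fold change was 0.96 among high-background and -1.46 among low-background libraries. Levels in Type 1 were 85.9, 34.5 and 48.1 in TAM depleted and 20.7, 18.7, 15, 24.1 and 28.9 in Control libraries, and these groups did not overlap. Over all genes tested, 39.1% did not overlap in this Type 1 comparison and 10.5% lay wholly higher in the depleted libraries, so a single gene of 9 is near that background. Cdkn2b had the largest Type 1 fold change of the 9, 1.28 (SE 0.61, 95% interval -0.01 to 2.57, adjusted p = 0.168, limma). The exact permutation p was 0.0179, the smallest its 56 splits allow, and 0.321 after adjustment over the 36 such tests. Behind the Type 1 Control values are only 12 to 20 reads per library, and behind the depleted ones 57 to 153. With the background set as a block the fold change became 0.43. Between Controls the fold change was 1.14 (SE 0.56, adjusted p = 0.39, limma), and without Type 2 Control 1, the library with 3 reads, it was 1.82 (adjusted p = 0.0266, limma). The 2 highest Type 2 Control libraries are those of low background, and among high-background libraries alone the difference was 0.11.

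Cdk4 (chr10:127063534-127067920, plus strand), the kinase that the INK4 proteins inhibit, varied most. It had 2402, 412, 1485 and 423 normalized counts in Type 2 TAM depleted libraries, against 436, 8531, 604 and 1026 in Type 2 Control. In Type 1 it had 3007, 3832 and 1688 in TAM depleted and 2719.9, 1678, 681, 1439.7 and 2079 in Control libraries. Type 2 Control 2 stands at 8531, and the other 3 libraries of its group lie between 436 and 1026. The mean of that group, 2649 ± 3929 (SD, n = 4), therefore rests on 1 tumour. The Type 2 depletion fold change was -0.47 (SE 0.78, adjusted p = 0.766), and without that library it turned to 0.46 (adjusted p = 0.613, limma). It was 0.63 among high-background and -1.57 among low-background libraries, which include that tumour. Between Controls it was -0.34 (SE 0.74, adjusted p = 0.822) with the library and -1.27 (adjusted p = 0.351) without it (limma), and among high-background libraries alone -1.60. In Type 1 the depletion fold change was 0.78 (SE 0.81, adjusted p = 0.488, limma), and -0.64 with the background block. Between the depleted groups, which do not include it, the log2 fold change of Type 2 over Type 1 was -1.60 (SE 0.84, adjusted p = 0.466, limma).

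The region around Cdk4 was examined after that value was seen. For each gene with a mean of 50 or more, its log2 level in a library was set against its median over the 16 libraries, and the median of all genes of that library was subtracted. Of the 28 such genes that touch the span from 1.0 Mb before Cdk4 to 1.0 Mb after it, Cdk4 included, 26 were above their median in Type 2 Control 2. Of these, 21 were above it by at least 1 on the log2 scale, and 20 were at their highest of 16 libraries. The 27 neighbours without Cdk4 had a median deviation of 1.55, a factor of 2.93. In the other 15 libraries the same median lay between -1.30, in Type 2 Control 1, and 0.48.

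Gli1, the Hedgehog transcription factor, had 437 normalized counts in Type 2 Control 2, and its second highest library had 93.7. Lrp1, a large endocytic receptor, had 18051, with 12974 in the second highest library. Ctdsp2, a phosphatase gene, had 4297, with 1617 in the second highest, and Os9, which acts in protein quality control of the endoplasmic reticulum, had 1847, with 989.6. Tspan31, whose exons overlap those of Cdk4 by 641 bases on the opposite strand, had 1368, with 542 in the second highest. These 5 were chosen after their values were seen. Kif5a, a neuronal kinesin, and Nxph4 were the 2 genes of the region below their median, by -0.21 and -1.55.

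Farther out the values were lower. By 1-Mb steps from the middle of Cdk4, the median deviation was 1.61 over 5 genes just before it, 1.39 over 21 genes just after it and 0.71 over 37 genes in the next step outward. From 1 to 2 Mb before it the median was -0.64 over 2 genes, and 3 to 4 Mb after it -1.03 over 4 genes. The bins before and far after hold few genes. The rest of chromosome 10 had a median of -0.03 over 582 genes. Around every gene of the genome with at least 10 such neighbours, the same value was computed in this library as a description. It was as high as at Cdk4 in 13 of 10544 windows (0.123%), and 5 of these lay outside the Cdk4 region, all on chromosome 5 around the Gbp genes (at most 1.78). Around the other 8 genes no library had a median deviation of their 4 to 58 neighbours above 0.61, and Mdm2, which lies on the same chromosome, had -0.38 in Type 2 Control 2. The files hold expression values alone, and DNA copy number was not measured.

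**Figure D3:**
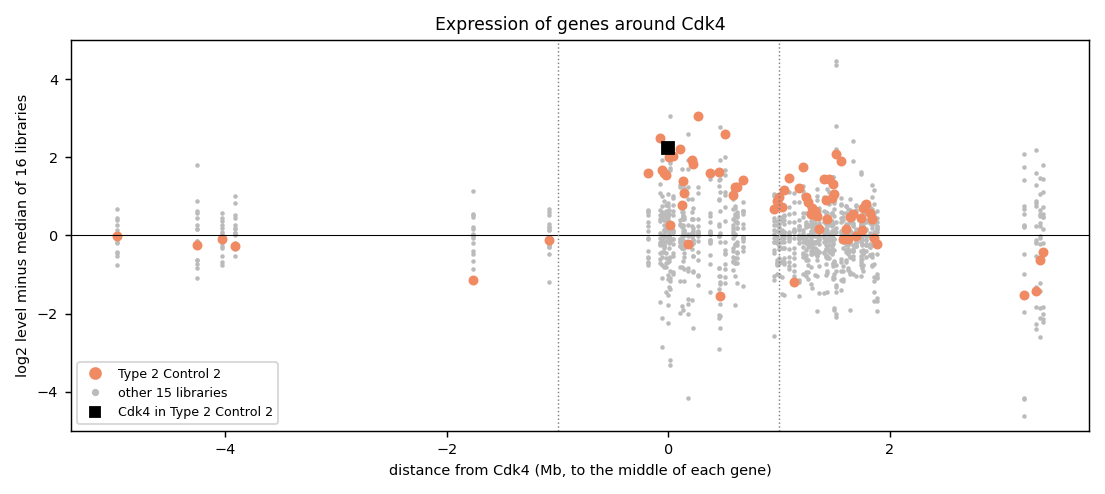
Deviation of each gene's log2 level from its median over 16 libraries, by distance from Cdk4 along the chromosome, for genes with a mean of 50 or more, after subtracting each library's median. In Type 2 Control 2 the genes within 1.0 Mb, between the dotted lines, have a median of 1.55 without Cdk4, and in the other 15 libraries that median lies between -1.30, in Type 2 Control 1, and 0.48.

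The Cdk4 promoter is shown because it was the densest in E-boxes of the 10 windows and heads the gene that varied most. Capitals mark CACGTG, the word bound by MYC and related factors, which lies 172, 118, 98 and 11 bases before the start in chr10:127063285-127063584, plus strand.
Cdk4 promoter: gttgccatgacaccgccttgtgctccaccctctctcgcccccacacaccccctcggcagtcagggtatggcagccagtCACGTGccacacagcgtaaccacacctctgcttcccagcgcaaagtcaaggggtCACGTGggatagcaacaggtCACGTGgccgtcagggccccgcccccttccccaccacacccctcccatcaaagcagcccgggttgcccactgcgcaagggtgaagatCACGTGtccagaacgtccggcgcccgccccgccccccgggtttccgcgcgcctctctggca
CACGTG reads the same on both strands and lies in 2349 of 32851 windows (7.15%), and only 8 (0.0244%) hold 4 or more. The Trp53 and Cdk6 windows hold 1 each.

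Cdk6 (chr5:3341485-3531008, plus strand), the second kinase of the INK4 and RB pathway, was the 1 member with an unadjusted p under 0.05 for depletion in Type 2. It had 186, 114, 129 and 361 normalized counts in TAM depleted libraries, against 354, 297, 374 and 250.4 in Control. Of the depleted libraries 3 lie below all Control libraries, and the fourth lies near the top of them. The fold change was -0.83 (SE 0.38, 95% interval -1.62 to -0.03), which did not pass over all genes (adjusted p = 0.258, limma; exact permutation p = 0.114). In this comparison 956 of 26463 genes (3.61%) passed, and 4755 had an unadjusted p under 0.05. Within the high-background libraries the fold change was -0.75 and within the low-background ones -0.90. In Type 1 Cdk6 had 304, 303 and 473 in TAM depleted and 440.1, 432, 407, 190.0 and 200.3 in Control libraries, and the fold change was 0.17 (SE 0.39, adjusted p = 0.759, limma). The difference between these responses was -0.999 (SE 0.54, adjusted p = 0.513, limma). The ratio of Cdk6 to Cdk4 reads ranged widely, from 0.0349 in Type 2 Control 2 to 0.853 in Type 2 TAM depleted 4, and the groups overlapped in every comparison.

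Rb1 (chr14:73183673-73325822, minus strand) had 706, 538, 571 and 369 normalized counts in Type 2 TAM depleted libraries, against 382, 663, 301 and 423 in Control. Type 1 libraries had 388, 471 and 565 in TAM depleted and 350.2, 339, 422, 271 and 271 in Control libraries. The groups overlap in both kinds, and the fold changes were 0.33 (SE 0.28, adjusted p = 0.573) in Type 2 and 0.52 (SE 0.29, adjusted p = 0.223) in Type 1 (limma). Lpar6 lies within Rb1 and shares 408 exon bases with it, and had 38.3 to 90.1 normalized counts of its own. The other end of the gene shares 488 exon bases with Rcbtb2 on the opposite strand, which had 198 to 667 normalized counts. The libraries carry no strand information, and the part of such shared bases in the Rb1 values was not tested.

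Nf1 (chr11:79339693-79581612, plus strand) had 2282, 4687, 1296 and 1867 normalized counts in Type 2 TAM depleted libraries, against 897, 1558, 1641.8 and 2714 in Control. Its highest library, Type 2 TAM depleted 2, was also the highest in neuron markers of the 16. Levels in Type 1 were 1266, 1039.7 and 2332 in TAM depleted and 746, 1290.4, 1442, 873 and 763 in Control libraries. The fold changes were 0.51 (SE 0.42, adjusted p = 0.551) in Type 2 and 0.56 (SE 0.44, adjusted p = 0.365) in Type 1, and the difference between them was -0.05 (SE 0.61, adjusted p = 0.977, limma). With the background block the Type 1 value became -0.35 and the difference 0.87. The introns of Nf1 host Omg, a myelin glycoprotein gene, and Evi2a, which share no exon bases with it. Omg had 829, 1309, 1008 and 972 normalized counts in Type 2 TAM depleted and 315, 820.2, 319.6 and 871 in Type 2 Control libraries.

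**Figure D4:**
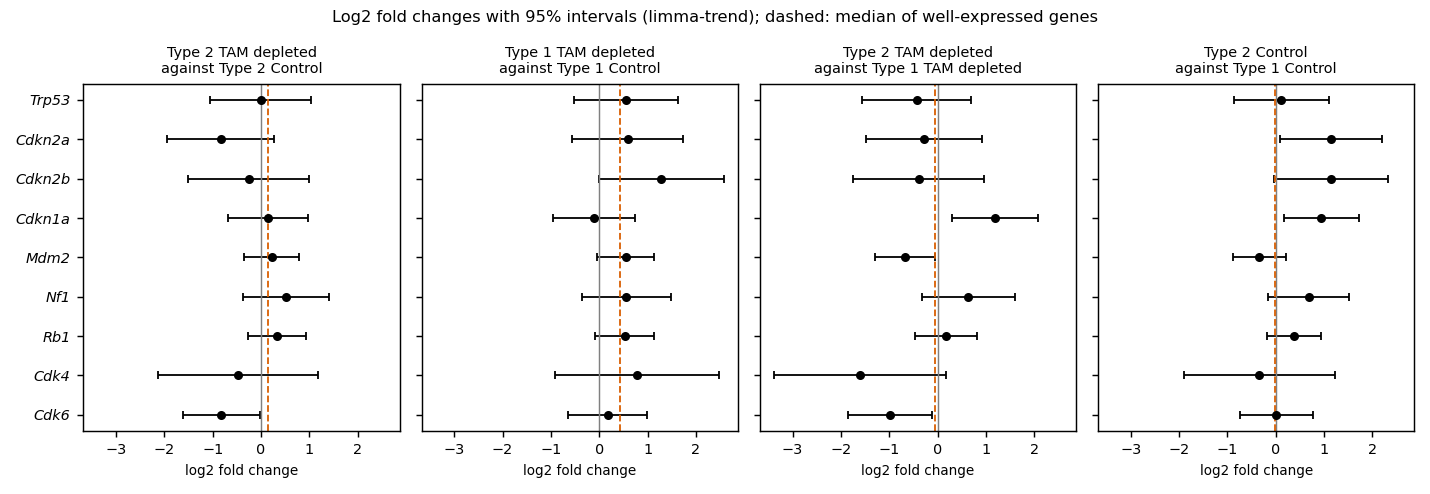
Log2 fold change of each of the 9 genes with its 95% interval in the comparisons of depletion and of tumour kind, from limma-trend, and a dashed line at the median of well-expressed genes. Before adjustment over all genes, the intervals of Cdkn1a in both comparisons of tumour kind and of Cdkn2a between the Controls lie above 0, and those of Cdk6 for Type 2 depletion and between depleted groups and of Mdm2 between depleted groups lie below 0.

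Counted by comparison, 0 of the 9 passed for Type 1 depletion, where 0 of 26463 genes passed (0%), although 8019 genes had an unadjusted p under 0.05 and none of the 9 did. In the separately normalized table of Type 1 alone 6 of the 9 passed, all higher in depleted tumours. Of all 29708 genes there 16381 passed, 6699 higher and 9682 lower. With library quality weights 3 of the 9 passed, and of 26463 genes 13721 did, 5209 higher and 8512 lower. For Type 2 depletion 0 of 9 passed, against 3.61% of all genes, and 1 had an unadjusted p under 0.05, as did 4755 of 26463 genes. For the difference of the 2 responses 0 of 9 passed, as did 0 of all genes (0%), with 2666 genes and none of the 9 at an unadjusted p under 0.05. Between the Controls 0 of 9 passed, against 3.09% of all genes, and 2 had an unadjusted p under 0.05, as did 3638 of 26463 genes. Between the depleted groups 0 of 9 passed, against 0.185% of all genes, and 3 had an unadjusted p under 0.05, as did 3206 of 26463 genes. Limma-voom on the recovered reads also called 0 of the 9 in each of the 5, and 0 of all genes for Type 1 depletion and for the difference. The median log2 fold change of the 9 was 0.55 for Type 1 depletion (well-expressed genes 0.43, all genes -0.06) and close to 0 for Type 2 depletion (well-expressed genes 0.15, all genes -0.21). For Type 2 Control against Type 1 Control it was 0.38, with -0.01 for well-expressed genes and -0.23 for all genes. The comparisons share groups, so their values are not independent of each other.

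Of 30 p53 target genes, 1 rose and 0 fell in Type 2 TAM depleted against Control tumours: Ak1, an adenylate kinase, at 2.10 (SE 0.52, adjusted p = 0.0377, limma), and the list's median was 0.12. Over all genes 3.61% passed there. Between the Controls, where 3.09% of all genes passed, 1 of 30 was higher in Type 2 and 0 lower. It was Phlda3, an inhibitor of AKT signalling, at 2.51 (SE 0.34, adjusted p = 0.000525, limma), with a list median of -0.10. For Type 1 depletion, the difference of responses and the depleted groups, 0 of 30 passed. For Type 1 depletion 23 of 30 were positive, with a median of 0.37 (well-expressed genes 0.43). That is near the share of well-expressed genes that were positive there, 76.2%. At an unadjusted p under 0.05 there were 3 for Type 1 depletion, 2 for the difference and 6 between the depleted groups. Of all 26463 genes, 8019, 2666 and 3206 were at that level in these comparisons. Of 11 regulators and relatives of p53, 0 passed in any comparison, and at an unadjusted p under 0.05 there were at most 5, for Type 1 depletion.

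Of the genes around the RB pathway beside the 9, those that passed did so between the Controls, where 3.09% of all genes passed. Of 7 other CDK inhibitors and pocket proteins, 2 were higher in Type 2 Control than in Type 1 Control tumours and 0 lower. All 7 fold changes were positive (median 0.82), as were 49.4% of those of well-expressed genes. Cdkn2c, which encodes the INK4 inhibitor p18, was higher by 2.32 (SE 0.42, adjusted p = 0.00442) and Rbl2, which encodes the RB relative p130, by 0.86 (SE 0.23, adjusted p = 0.0474) (limma). Of 7 G1 cyclins and kinases, 1 was higher and 0 lower: Ccnd3, a D-type cyclin, at 2.40 (SE 0.41, adjusted p = 0.00268, limma), and the 7 divided into 4 positive and 3 negative. In the other 4 comparisons 0 of either list passed, with at most 3 of 7 at an unadjusted p under 0.05. Of all 26463 genes, 2666 to 8019 were at that level in these comparisons.

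The 24 RB-E2F targets, genes of DNA replication that follow release of E2F, passed in 0 of the 5 comparisons. In Type 2 TAM depleted against Control 23 of 24 were negative (median -0.54, well-expressed genes 0.15, all genes -0.21). Of the 24, 5 had an unadjusted p under 0.05, as did 4755 of all 26463 genes. In Type 1 24 of 24 were positive (median 0.61, well-expressed genes 0.43, all genes -0.06), with 0 at an unadjusted p under 0.05. Of well-expressed genes 59.1% were positive for Type 2 depletion and 76.2% for Type 1 depletion. Between depleted tumours 24 of 24 were lower in Type 2 (median -1.44, well-expressed genes -0.05, all genes 0.11), 20 at an unadjusted p under 0.05. Between the Controls 7 were positive and 17 negative (median -0.22, well-expressed genes -0.01, all genes -0.23). Of the 24, 1 there and 6 for the difference of responses had an unadjusted p under 0.05. Of all 26463 genes, 8019 were at that level for Type 1 depletion and 3206 between depleted tumours. Between the Controls 3638 were, and for the difference 2666. Of well-expressed genes 47.2% were positive between depleted tumours and 49.4% between the Controls. The 24 targets rise and fall together with cycling cells, so their number is not a number of independent results. Mki67, the proliferation marker, had 5978, 889.7, 6719.6 and 1339 normalized counts in Type 2 TAM depleted libraries, against 4568, 10765, 3301 and 4477 in Type 2 Control (log2 fold change -0.98, adjusted p = 0.419, limma). In Type 1 it had 10019, 6808 and 4149 in TAM depleted, against 4029, 3184, 1666, 3068 and 4302 in Control libraries (1.09, adjusted p = 0.233, limma). The 2 Type 2 TAM depleted libraries low in Mki67 are also the 2 lowest in Cdk4, Trp53 and Cdkn2a of their group.

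**Figure D5:**
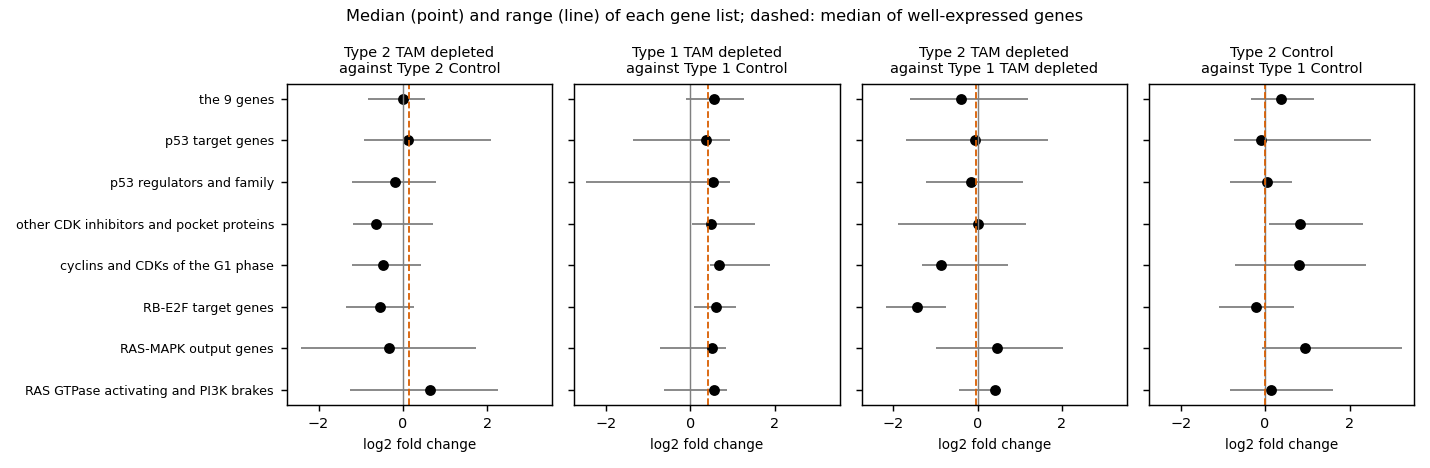
Median (point) and range (line) of the log2 fold changes of each pathway list in the comparisons of depletion and of tumour kind, with a dashed line at the median of well-expressed genes. The 24 RB-E2F targets lie above 0 for Type 1 depletion and, but for 1 gene, below 0 for Type 2 depletion, with 0 past the threshold. Of well-expressed genes 76.2% lie above 0 for Type 1 depletion and 59.1% for Type 2 depletion.

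Neurofibromin restrains RAS. Of 15 output genes downstream of RAS, 2 were higher in Type 2 Control than in Type 1 Control tumours and 0 lower. The list's median was 0.94, and over all genes 3.09% passed there. Ier3, an immediate early gene, was higher by 3.25 (SE 0.44, adjusted p = 0.000518) and Dusp6, an ERK phosphatase, by 1.52 (SE 0.38, adjusted p = 0.0378) (limma). In Type 2 TAM depleted against Control tumours Ier3 fell by 2.41 (SE 0.46, adjusted p = 0.0154, limma), 1 of 15, and 0 rose. Over all genes 3.61% passed in that comparison. Of 12 other RAS GTPase activators and PI3K brakes, 1 rose and 1 fell there. The gene that fell was Inpp5d, a phosphatase of blood cells also known as SHIP1, by 1.24 (SE 0.33, adjusted p = 0.0453, limma). Between Controls Rasa3 was higher in Type 2 by 1.61 (SE 0.39, adjusted p = 0.0304, limma), 1 of 12 with 0 lower. In the remaining comparisons 0 of either list passed, with at most 2 at an unadjusted p under 0.05. Of all 26463 genes, 2666 to 8019 were at that level there.

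Markers of other cells moved with these comparisons. Over all genes 3.61% passed for Type 2 depletion and 3.09% between the Controls. In Type 2 TAM depleted against Control tumours 7 of 12 neuron markers rose and 0 fell (median 3.52), and the neuron score, the mean log2(normalized count + 1) of the list, ran from 9.85 to 12.3 in depleted libraries, against 6.35 to 9.24 in Control. In the same comparison 5 of 17 TAM markers fell (median -1.39), with scores of 6.36 to 7.52 in depleted and 7.59 to 8.63 in Control libraries. Between the Controls 3 of 12 neuron markers were lower in Type 2 and 3 of 7 oligodendrocyte precursor and glioma markers were higher, led by Sox10 at 4.56 (adjusted p = 9.31e-05, limma). Their part in the values of the 9 genes and of the lists was not tested.

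By profile over the 16 libraries, each centred on its own mean, the genes nearest to each of the 9 were found among those with a mean of 50 or more. The measure is the mean absolute difference on the log2 scale. Rb1 was closest to Atp11b (0.123) and Xiap (0.137), Nf1 to Acap2 (0.146) and Arhgef12 (0.172), and Mdm2 to Mlst8 (0.148) and Scyl2 (0.149). Trp53 was closest to Pabpc1 (0.186) and Map4k4 (0.188), Cdkn2a to Gpsm2 (0.286) and Calr (0.291), and Cdk4 to Pa2g4 (0.30) and Rps26 (0.33), which lie in the step from 1 to 2 Mb after it. Cdk6 was closest to Slc43a1 (0.306) and Galnt4 (0.317), Cdkn1a to Iffo2 (0.33) and Tns1 (0.346), and Cdkn2b to Gpt2 (0.396) and Bahcc1 (0.396). Among the 9, the nearest pair was Trp53 and Cdkn2a (0.403), then Nf1 and Rb1 (0.471), then the neighbours Cdkn2a and Cdkn2b (0.502). The farthest was Nf1 and Cdk4 (1.34). These profiles share library depth and background, and are given as descriptions.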

How the data were processed

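Total RNA was isolated with TRIzol and miRNeasy columns, and SMART-Seq v4 libraries, which carry no strand information, were prepared from it, per the labels' protocols. Per the submitters' processing notes, STAR 2.7.8a, GRCm38 and DESeq2 were used; no source used here names the counting tool. The authors deposited log2 values that proved to be variance-stabilized. They were inverted to normalized counts, which were whole multiples of 1 step per library (tolerance 0.05 reads), and this gave the reads per library. The design had assumed linear normalized counts.

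The 26463 genes that reached 10 in 3 or more libraries entered the test on log2(normalized count + 1) by limma-trend, 2-sided, with 4 group means fitted together over 16 libraries (limma version 3.58.1 under R 4.3.3), with a threshold of 0.05 on the adjusted p. Residual degrees of freedom were 12, with a prior of 4.74. Exact permutation tests were 2-sided and ran on the log2 values. Read ratios used 0.5 added reads. The steps were tested on simulated data. All 9 genes were named in every comparison, with up to 4 genes of smallest p of a list in which any gene passed, Csf1r and Mki67, and the 2 nearest profiles of each of the 9; some results under this rule are not reported here; the Cdk4 region was added after its value was seen. The 9 genes and all lists were chosen with earlier results of these data known. Alternatives were other pseudocounts, filters and scalings, the deposited log2 values, limma-voom, library weights, robust moderation, background and replicate blocks, the table of 1 tumour kind, each background set alone, and leaving out each library. Lowest chi-square per degree of freedom between libraries of a group was 9.43, so none differed from another by counting error alone. This check cannot tell whether separate libraries came from the same tumour. Without molecular identifiers, an interval on reads covers counting error alone. Sequences are from RefSeq (GRCm38.p6).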

Additional observations from a re-analysis of the deposited data

Results flagged for a closer look

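Of 27 groups of 4 or 5 libraries examined over the 9 genes, 1 held a library far from the rest. Cdk4 in Type 2 Control 2, at 8531 normalized counts, left a gap to the next library that was 0.927 of the range of its group, above Dixon's 95% critical value for 4 samples. On the log2 scale the gap was 0.712 of the range, below that value. Chance places about 1 group in 20 past this limit.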

How the results depend on the processing

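None of the 9 genes passed in any of the 5 comparisons under scaling by upper quartile or quantiles, pseudocounts of 0.5 and 8, no filter or a filter of 50, the deposited log2 values, limma-voom, robust moderation or the background set as a block. With either background set alone 0 of the 9 passed in the comparisons whose groups it holds: Type 2 depletion for both sets, the Controls for the high and the depleted groups for the low set. Type 1 depletion and the difference could not be fitted within a set. For Type 1 depletion, 3 passed with library quality weights and 6 in the table of 1 tumour kind alone (Trp53, Cdkn2a, Cdkn2b, Mdm2, Nf1 and Rb1, all higher). Of all genes, 5209 were called higher and 8512 lower with the weights, and 6699 higher and 9682 lower in that table. Between the Controls 4 passed with library quality weights (Cdkn2a, Cdkn2b, Cdkn1a and Nf1, all higher in Type 2). There 6559 of 26463 genes passed, 2646 higher and 3913 lower in Type 2. Why these settings called more genes was not tested. With the background block, Type 1 depletion turned negative for Trp53 (-0.29), Cdkn2a (-0.34), Nf1 (-0.35), Rb1 (-0.0092) and Cdk4 (-0.64), and the difference turned positive for Trp53 (0.28), Nf1 (0.87), Rb1 (0.34) and Cdk4 (0.17). Leaving out each library gave 0 to 1 genes between the Controls, the 1 being Cdkn2b without Type 2 Control 1, and 0 in the other comparisons. Upper quartile scaling moved the median of all genes in Type 1 depletion to -0.44, against -0.06 as reported, and in Type 2 depletion to -0.41, against -0.21. Same-numbered libraries did not deviate together in every pair (correlations -0.16 to 0.37 in Type 1 and -0.67 to 0.50 in Type 2). So few correlations, in libraries that differ in background and depth, cannot decide whether the numbers pair the tumours. The tumours were treated as unpaired, and with the replicate block 0 of the 9 passed in either depletion comparison. The depleted and Control tumours of Type 1 differ in depth and background as well as treatment.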

Other observations

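Mtap, a neighbour of Cdkn2a on chromosome 4 that is often lost with it in human glioma, was read in every library. It had 752, 189.5, 991 and 298 normalized counts in Type 2 TAM depleted and 429, 1805, 555 and 508 in Type 2 Control libraries. In Type 1 it had 512, 478 and 324 in TAM depleted and 417, 300, 154, 274 and 420.4 in Control libraries. In Type 2 TAM depleted libraries 2 and 4, Cdkn2a and Mtap were both at the lower end of their group.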
